A study of Mus musculus with 8 samples.

Results

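Expression of 10 genes for R-spondins and secreted WNT antagonists was compared between PDGFRα- and PDGFRα+ fractions of YFP+ stromal cells sorted from mouse small intestine. The genes were chosen by symbol and comprised Rspo1, Rspo2, Rspo3, Sfrp1, Sfrp2, Sfrp4, Frzb, Dkk2, Dkk3 and Wif1. Each matched 1 of the 53801 rows of the count table. The cells were CD45- CD31- YFP+, that is, they lacked the leukocyte and endothelial surface markers and carried the fluorescent reporter. They came from mice described in the labels as LTβRfloxPDGFRα/YFP, in which the lymphotoxin β receptor gene is floxed, and this holds for both groups. The labels do not name the driver of recombination, the age of the mice or whether animals were pooled. Of the 8 libraries, 4 were from PDGFRα- and 4 from PDGFRα+ cells, numbered 1 to 4 in each group. Separate mice are not stated for the libraries of a group, so every p-value rests on library-to-library spread, part of which may be technical.

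R-spondins are secreted proteins that bind LGR receptors and withdraw the membrane E3 ubiquitin ligases ZNRF3 and RNF43 from the cell surface. Frizzled WNT receptors are then degraded less, and the cell responds more strongly to WNT ligands. The antagonists act outside the cell in different ways. Secreted frizzled-related proteins (SFRP1, SFRP2, SFRP4 and FRZB, also called SFRP3) and WIF1 bind WNT ligands, while DKK2 binds the co-receptors LRP5 and LRP6. DKK3 belongs to the Dickkopf family by sequence, but does not share the LRP binding of its relatives. In the intestine, stromal cells around the crypt base are a known source of R-spondins, on which LGR5+ epithelial stem cells depend.

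Total counts per library ran from 12926651 to 35115771. Levels are given as CPM, counts per 1000000 of the TMM-scaled library size, as mean ± SD with n = 4 libraries per group. Fibroblast genes were abundant in every library, with Col1a1 at 24445 to 53118 CPM and Dcn at 3585 to 7351 CPM. RNA of the sort marker Pdgfra was 652 ± 124 CPM in PDGFRα- and 597 ± 69.2 CPM in PDGFRα+ libraries (edgeR adjusted p = 0.971), so it gives no check of the sort, which was on protein. Some libraries carried more RNA of other cell types. The summed level of 12 epithelial marker genes was 631 CPM in PDGFRα- library 2, of which the lysozyme gene Lyz1 made up 571 CPM, and 2.87 to 150 CPM in the others. The summed level of 10 endothelial genes was 741 CPM in PDGFRα- library 4, against 52.8 to 172 CPM in the others. In such bulk samples, fewer cells of a type and less RNA per cell cannot be told apart.

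Upstream sequence is shown for 2 genes whose CPM did not overlap between the groups and whose window holds no annotated exon, Dkk2 and Rspo1. Each run is the 250 bases before the RefSeq transcription start (GRCm38.p6, plus strand), at chr3:132085042-132085291 for Dkk2 and chr4:124986180-124986429 for Rspo1. Capitals mark matches on either strand to the TATA box (TATAAA), the GC box (GGGCGG) and a TCF/LEF core (CTTTGAT), the motif of the transcription factors that act with β-catenin.
Dkk2: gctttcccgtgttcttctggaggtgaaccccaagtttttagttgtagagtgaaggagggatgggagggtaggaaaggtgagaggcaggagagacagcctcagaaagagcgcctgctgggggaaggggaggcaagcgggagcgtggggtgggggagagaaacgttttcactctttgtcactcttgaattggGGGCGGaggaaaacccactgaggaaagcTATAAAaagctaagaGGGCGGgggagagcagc
Rspo1: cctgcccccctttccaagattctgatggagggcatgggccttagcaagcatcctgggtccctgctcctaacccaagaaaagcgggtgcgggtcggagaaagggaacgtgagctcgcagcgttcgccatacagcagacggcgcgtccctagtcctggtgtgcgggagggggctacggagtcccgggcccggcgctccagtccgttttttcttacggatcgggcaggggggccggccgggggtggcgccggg
The Dkk2 window held 1 TATA box and 2 GC boxes. The Rspo1 window held no match to any of these motifs, and its GC content was 66.8% against 55.6% for Dkk2 and a median of 52.4% over all 32851 windows. The TATA box was in 12.4% of all windows, the GC box in 32.7% and the TCF/LEF core in 3.21%. None of the windows of the 5 listed genes (Dkk2, Rspo1, Frzb, Sfrp2 and Wif1) held the TCF/LEF core. RefSeq windows for Rspo2, Rspo3, Sfrp1, Sfrp4 and Dkk3 were not used here. A match is a description of the letters and not a site in use.

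Levels differed widely between the genes. Dividing CPM by the length of the merged exons in kb allows genes to be compared, and the mean over 8 libraries was then 387 CPM per kb for Sfrp1, 82.6 for Dkk3, 39.6 for Dkk2 and 32.6 for Rspo3. Sfrp1 thus ranked 49 of 15622 tested genes with an annotated length, Dkk3 290, Dkk2 685 and Rspo3 856. The remaining genes followed with Rspo2 at 10.6 CPM per kb, Frzb at 3.44, Rspo1 at 2.16, Sfrp4 at 1.11, Sfrp2 at 0.624 and Wif1 at 0.15. The lowest Sfrp1 library (251 CPM per kb) was above the highest Dkk3 library (115), and the lowest Dkk3 library (63.7) was above the highest Dkk2 library (53.3). Dkk2 and Rspo3 were not separated, since Dkk2 was the higher in 6 of 8 libraries. Rspo3 exceeded Rspo2 in 8 of 8 libraries, although the lowest Rspo3 library (16.2) lay just under the highest Rspo2 library (16.8). Below Rspo2 no neighbours in this order were separated over all libraries. With the length of the longest transcript in place of merged exons, Rspo2 stood at 16.3 CPM per kb, and the order of the 10 genes was the same.

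**Figure D1:**
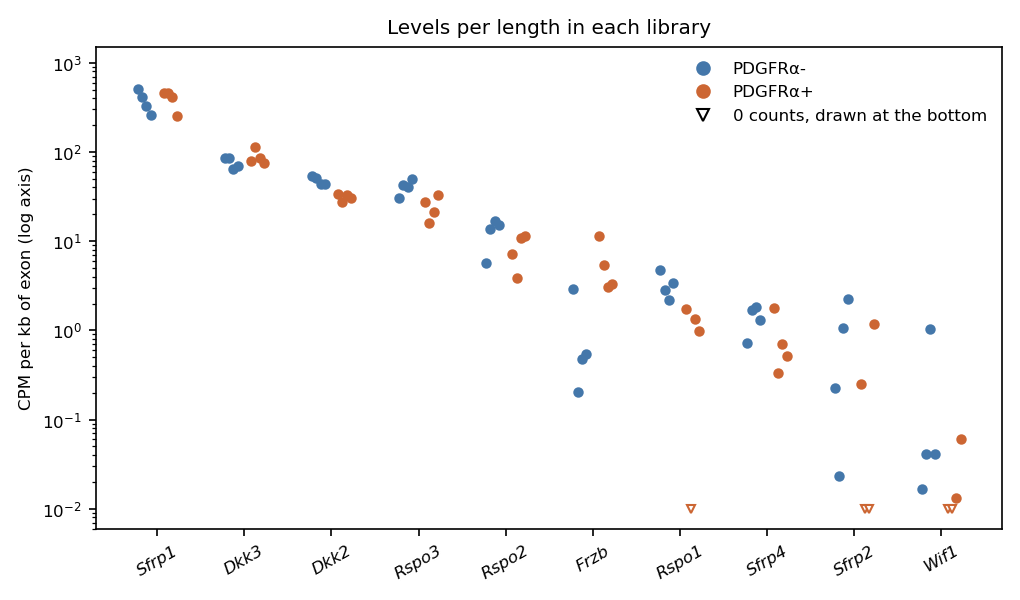
Level of each gene in CPM per kb of merged exon (log axis) in the 8 libraries, PDGFRα- in blue and PDGFRα+ in orange, with genes ordered by their mean. Sfrp1 was above every other gene in all libraries, and open triangles mark libraries with 0 counts for Rspo1, Sfrp2 and Wif1.

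Between the fractions, no gene of the 10 passed the edgeR quasi-likelihood test with group as the only term, at a Benjamini-Hochberg adjusted p of 0.05 over all 15643 tested genes. That fit called 0.192% of all tested genes as higher and 0.0511% as lower in PDGFRα+ libraries. Of the 10 genes, 9 were tested, and Wif1 was too low. Without adjustment, p was under 0.05 for 3 of 9 in that fit (6.95% of all tested genes). Under the same design DESeq2 called 2 genes, Dkk2 and Frzb, and limma-voom called 0. With the replicate number as a block, as in the model of the authors' deposited comparison, 1 gene was higher, Frzb, and 2 were lower, Rspo3 and Dkk2. The background of that fit was 1.34% of tested genes higher and 0.933% lower, and its unadjusted p was under 0.05 for 11.65% of all tested genes and for 4 of these 9. The authors' deposited table lists the same 3 genes in the same directions, with an adjusted p of 3.23e-08 for Frzb, 0.00331 for Rspo3 and 2.23e-04 for Dkk2, where 2.3% of its genes are listed as higher and 2.52% as lower. Log2 fold changes were negative for 6 of 9 tested genes in both edgeR fits (50.9% of all tested genes without the block), and their median was -0.62 against -0.01 over all tested genes. The CPM of the groups did not overlap for 3 genes, Frzb with PDGFRα+ above, and Dkk2 and Rspo1 with PDGFRα+ below, a state found in 2.69% and 2.36% of all tested genes.

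**Figure D2:**
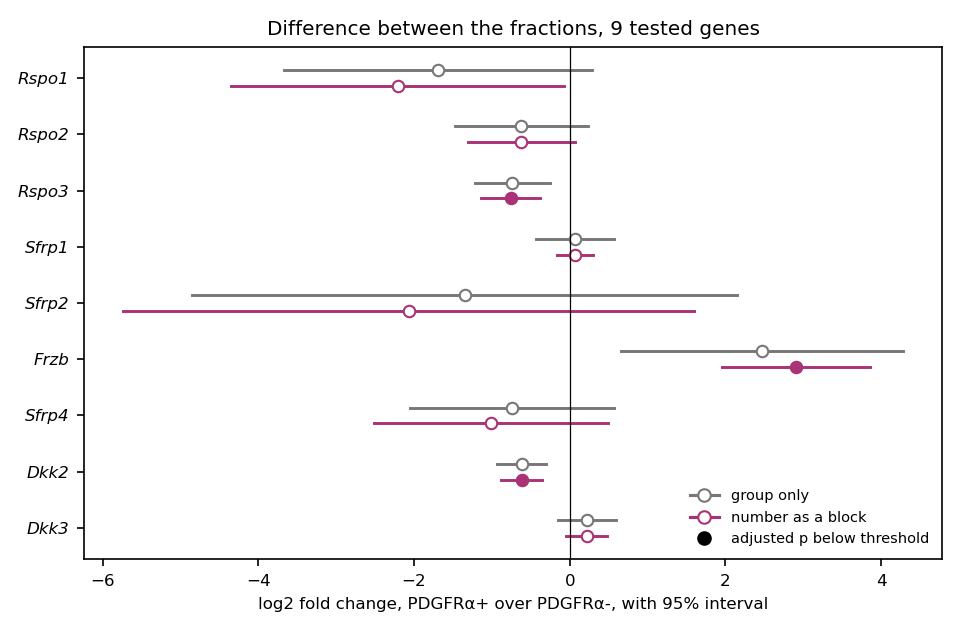
Log2 fold change of PDGFRα+ over PDGFRα- libraries with its 95% interval for the 9 tested genes, from edgeR with group alone (grey) or with the number added as a block (purple); filled points passed the adjusted p threshold. Only Frzb, Rspo3 and Dkk2 are filled, all in the blocked fit.

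The R-spondin genes all had lower means in PDGFRα+ libraries. Rspo3 (ENSMUSG00000019880, chromosome 10, 29452416 to 29535867, minus strand, GRCm38), the most abundant R-spondin gene here, stood at 93.0, 132, 124 and 155 CPM in PDGFRα- libraries 1 to 4 and at 84.1, 50.0, 65.8 and 103 CPM in PDGFRα+ libraries 1 to 4. It was lower in the PDGFRα+ library of all 4 same-numbered pairs, but the groups overlapped, because PDGFRα+ library 4 was above PDGFRα- library 1. The means were 126 ± 25.5 and 75.7 ± 22.8 CPM, 1.66-fold lower in PDGFRα+ cells. The log2 fold change was -0.74 ± 0.22 (SE) without the block (edgeR adjusted p = 0.315, 95% interval -1.21 to -0.26) and -0.76 ± 0.18 with it (edgeR adjusted p = 0.0348). The blocked call did not hold without number 2, 3 or 4 (edgeR adjusted p = 0.0951, 0.25 and 0.0615), while the log2 fold change stayed between -0.97 and -0.54. Rspo3 exons share 404 bases with Gm48159 on the other strand, which had 126 counts in all libraries together.

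Markers of lymphatic endothelium, another known source of Rspo3 that the CD31 gate should leave out, also varied. The summed level of 6 such genes was 27.6 to 239 CPM in PDGFRα- and 15.0 to 86.3 CPM in PDGFRα+ libraries, and number 4 was the highest in both groups, as it was for Rspo3. The defining gene Prox1 reached 19.5 CPM in PDGFRα- library 4 and was at 0 in PDGFRα+ library 2, which had the lowest Rspo3. Among PDGFRα- libraries the sum and Rspo3 did not keep the same order. There library 2 had the lowest sum (27.6 CPM) with Rspo3 at 132 CPM, and library 3 had 125 CPM with Rspo3 at 124 CPM. None of the 6 genes passed either edgeR test. Without PDGFRα- library 4 the log2 fold change of Rspo3 was -0.62, and without PDGFRα+ library 4 it was -0.91 (no block). The part of these cells in the Rspo3 difference was not tested.

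Trophocytes are the CD81+ fibroblasts under the crypts that are known to make R-spondins and the BMP antagonist gremlin. They were read together with adventitial fibroblasts from a list of 10 genes, all of them tested. The sum of the list overlapped between the groups, at 2192 to 3223 CPM in PDGFRα- and 2097 to 3038 CPM in PDGFRα+ libraries. In the blocked edgeR fit 2 genes were lower and 1 was higher, against 0.933% and 1.34% of all tested genes, and the unpaired fit called 0. Before adjustment 3 of 10 were under 0.05 unpaired and 5 with the block, against 6.95% and 11.65% of all tested genes. Grem1, the gremlin gene, was at 1061 ± 209 CPM in PDGFRα- and 534 ± 180 CPM in PDGFRα+ libraries, and Cd81 at 135 ± 22.5 and 69.3 ± 19.4 CPM (blocked edgeR adjusted p = 5.63e-04 and 6.52e-04, unpaired 0.113 and 0.0723). Col15a1, a basement membrane collagen gene on the same list, was the higher one, at 762 ± 117 and 1333 ± 392 CPM. Over the list, log2 fold changes were positive for 3 of 10 genes unpaired and for 4 with the block. Grem1 and Cd81 were thus lower as Rspo3 was, while Col15a1 was higher. The part of trophocyte numbers in the Rspo3 difference was not tested.

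Of the other marker lists, smooth muscle had 1 call in the blocked fit, Myocd (31.1 ± 17.2 and 70.8 ± 38.8 CPM, higher in PDGFRα+), with its leading gene Acta2 at 82.1 to 496 CPM. Pericytes had 2, Cspg4 higher (32.9 ± 11.9 and 73.0 ± 20.7 CPM) and Abcc9 lower (83.9 ± 12.3 and 34.8 ± 17.8 CPM), with Rgs5 as the leading gene at 561 to 1467 CPM. The blocked fit called 1.34% of all tested genes as higher and 0.933% as lower. The unpaired fit called none of these marker genes. Before adjustment 0 of 9 smooth muscle and 3 of 8 tested pericyte genes were under 0.05 in it, against 6.95% of all tested genes. With the block 3 of 9 and 2 of 8 were, against 11.65%. Neither fit called a gene among markers of epithelium, endothelium (leading gene Tek), lymphatic endothelium (Ccl21a), leukocytes (Cd74), glia (Gpm6b), neurons (Uchl1), interstitial cells of Cajal (Ano1) or mesothelium (Wt1). Several of these lists had few tested genes, with 6 of 12 for epithelium, 5 of 8 for glia, 1 of 7 for neurons and 2 of 6 for mesothelium. The epithelial gene Lyz1 was not tested, so 0 calls say little for these lists. Unpaired log2 fold changes were positive for 0 of 6 tested epithelial and 0 of 8 endothelial genes. They were positive for 1 of 6 lymphatic endothelial and 2 of 10 leukocyte genes. Most genes of these 4 lists were thus lower in PDGFRα+ libraries, against 50.9% of all tested genes. The rest were mixed, positive for 2 of 5 glial, 0 of 1 neuronal, 2 of 4 Cajal and 2 of 2 mesothelial genes. With the block the 8 counts in this order were 0, 1, 0, 1, 1, 0, 1 and 0. Across these 8 lists at most 4 genes a list were under 0.05 before adjustment in the blocked fit and at most 2 in the unpaired fit. The highest blocked shares were 3 of 4 genes of interstitial cells of Cajal and 4 of 6 lymphatic endothelial genes, against 11.65% of all tested genes. Their part in the differences described here was not tested.

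Rspo2 (ENSMUSG00000051920, chromosome 15, 43020794 to 43170826, minus strand) stood at 28.8, 70.7, 85.6 and 78.4 CPM in PDGFRα- and 37.0, 19.8, 55.7 and 58.4 CPM in PDGFRα+ libraries 1 to 4. PDGFRα- library 1 fell within the range of the PDGFRα+ libraries, and pair 1 alone was higher in PDGFRα+. Its log2 fold change came to -0.62 ± 0.39 (SE) with an edgeR adjusted p of 0.872, and the 95% interval from -1.48 to 0.23 holds both no change and a decrease as large as that of Rspo3. The blocked fit gave an edgeR adjusted p of 0.494, and its log2 fold change ran from -0.95 without number 1 to -0.22 without number 2.

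Rspo1 (ENSMUSG00000028871, chromosome 4, 124986430 to 125009099, plus strand) was a low-level transcript, at 9.32, 5.43, 4.29 and 6.58 CPM in PDGFRα- libraries 1 to 4. In PDGFRα+ libraries 1 to 4 it was at 3.35, 0, 2.61 and 1.93 CPM, so every PDGFRα+ library was below every PDGFRα- library. PDGFRα+ library 2 had 0 counts, which allows up to 0.123 CPM at 3 counts. The means of 6.41 ± 2.16 and 1.97 ± 1.44 CPM differed 3.24-fold. Even so, the log2 fold change of -1.69 ± 0.92 (SE) did not pass without the block (edgeR adjusted p = 0.827), nor did -2.21 ± 0.99 with it (edgeR adjusted p = 0.4). Without number 2, which holds the library at 0, the blocked value was -1.31. The authors' deposited table gives an adjusted p of 0.0809 for Rspo1. These counts were 26 to 229 per library outside the library at 0.

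Summed over the 3 genes per kb of exon, R-spondin RNA was 40.5, 59.4, 59.1 and 68.8 CPM per kb in PDGFRα- and 36.2, 20.1, 33.6 and 45.7 CPM per kb in PDGFRα+ libraries 1 to 4. The groups overlapped only between PDGFRα- library 1 and PDGFRα+ library 4. Rspo3 made up 71.7% ± 2.71 of the sum in PDGFRα- and 73.0% ± 7.17 in PDGFRα+ libraries, Rspo2 22.0% ± 6.0 and 24.2% ± 6.08, and Rspo1 6.32% ± 3.74 and 2.75% ± 2.13. The shares of Rspo3 and Rspo2 were close between the groups, while the mean share of Rspo1 was lower in PDGFRα+ libraries, with overlap.

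**Figure D3:**
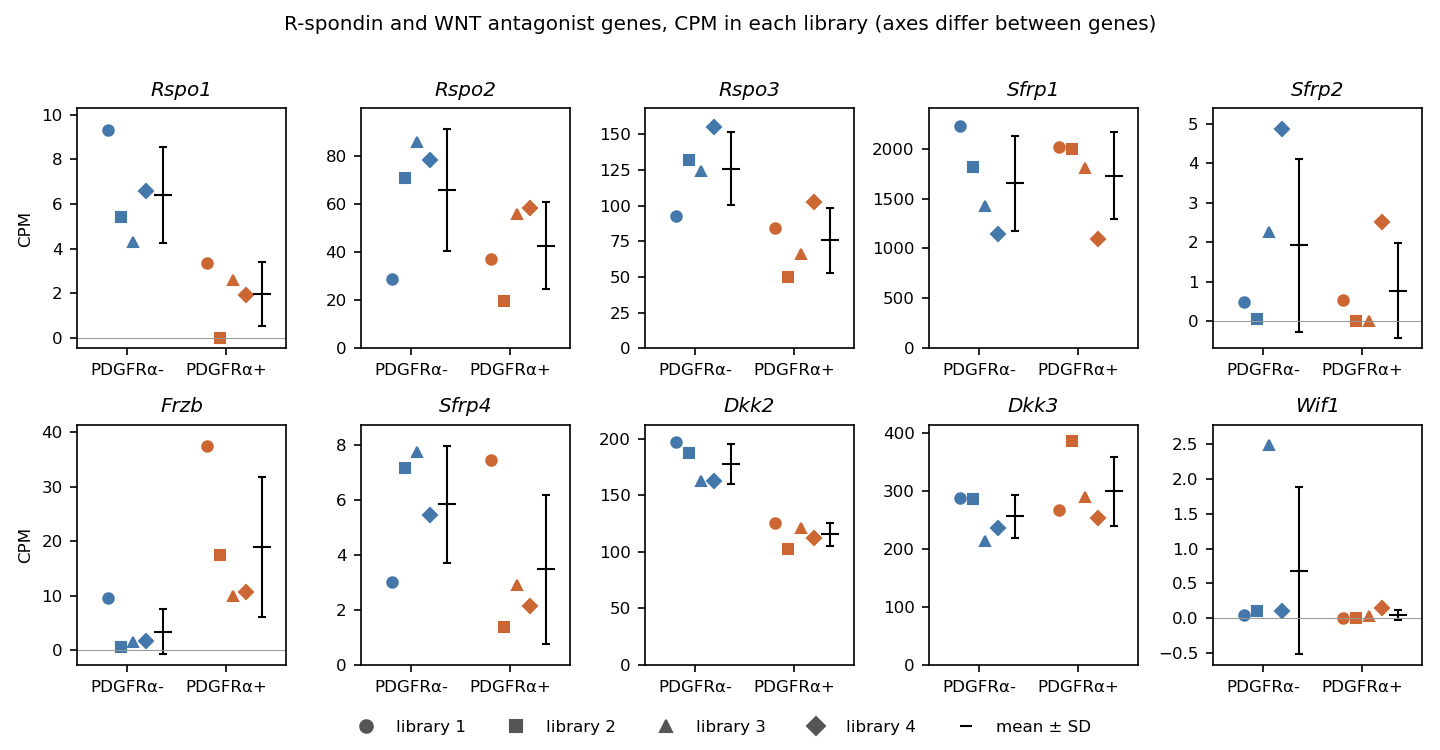
CPM of the 10 genes in each library (symbols mark the library number; black bars are mean ± SD, n = 4; each panel has its own axis). The PDGFRα+ libraries lie below all PDGFRα- libraries for Dkk2 and Rspo1 and above them for Frzb, and the groups overlap for Sfrp1, from 1140 to 2230 CPM in PDGFRα- and 1098 to 2019 CPM in PDGFRα+ libraries.

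Among the antagonists, the SFRP family held the most abundant gene, Sfrp1, and the tested gene with the largest fold change, Frzb. Sfrp1 (ENSMUSG00000031548, chromosome 8, 23411502 to 23449632, plus strand) stood at 2230, 1819, 1426 and 1140 CPM in PDGFRα- and 2019, 1995, 1809 and 1098 CPM in PDGFRα+ libraries 1 to 4. Number 1 was the highest and number 4 the lowest library in both groups, and Sfrp1 was among 669 of 15643 genes that differed between the numbers in edgeR with group in the model (adjusted p = 0.00864). The fractions did not differ detectably, with a log2 fold change of 0.07 ± 0.23 (SE, edgeR adjusted p = 0.993). The 95% interval was -0.43 to 0.56 without the block and the narrower -0.16 to 0.30 with it. Its sign turned without PDGFRα- library 4 or PDGFRα+ library 1 or 2, and without number 3 in the blocked fit, with values between -0.07 and 0.25 over all libraries or numbers left out in turn.

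Frzb (ENSMUSG00000027004, chromosome 2, 80411970 to 80447625, minus strand), which encodes a WNT-binding SFRP first known from cartilage, was at 9.53, 0.654, 1.56 and 1.76 CPM in PDGFRα- libraries 1 to 4. In PDGFRα+ libraries 1 to 4 it was at 37.4, 17.4, 10.01 and 10.6 CPM. All PDGFRα+ libraries were above all PDGFRα- libraries, although the margin between PDGFRα- library 1 and PDGFRα+ library 3 was small. Within each same-numbered pair the log2 difference was 1.97, 4.74, 2.68 and 2.60. The group means of 3.37 ± 4.13 and 18.9 ± 12.8 CPM differed 5.59-fold. Without the block this was a log2 fold change of 2.47 ± 0.81 (SE) at an edgeR adjusted p of 0.435, and with it 2.91 ± 0.45 (edgeR adjusted p = 0.00192, 95% interval 1.957 to 3.86).

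Number 1 was the highest Frzb library in both groups, and Frzb passed the test of the number (edgeR adjusted p = 0.0347). Without PDGFRα- library 1 the unpaired log2 fold change was 3.84 and the gene passed (edgeR adjusted p = 0.0283). Leaving out any other single library kept the unpaired adjusted p between 0.417 and 0.807. The blocked call held in each of the 4 fits without 1 number (log2 fold change 2.40 to 3.29, edgeR adjusted p up to 0.0312). Against Sfrp1, Frzb stayed a minor transcript, at 0.245% ± 0.231 of the Sfrp1 level per kb in PDGFRα- and 1.43% ± 0.752 in PDGFRα+ libraries. The summed level of 10 markers of telocytes, the subepithelial fibroblasts with high PDGFRα, moved with Frzb between the groups, at 324 to 480 CPM in PDGFRα- and 581 to 1095 CPM in PDGFRα+ libraries. Most of that difference was in 1 gene, Col6a5, a collagen VI gene, at 209 ± 50.9 and 667 ± 181 CPM. The other 9 genes summed to 143, 255, 219 and 201 CPM in PDGFRα- and 170, 314, 267 and 321 CPM in PDGFRα+ libraries 1 to 4, and these groups overlapped. Within groups the sum of all 10 did not follow Frzb, since number 1 had the lowest telocyte sum in both. Of the 8 tested telocyte genes, Col6a5 was higher in both fits and Bmp5 with the block, and Foxl1 was listed at 0 in every library. The unpaired fit called 0.192% of all tested genes as higher, and the blocked fit 1.34%. Log2 fold changes were positive for 7 of the 8 unpaired and for 6 with the block. Wnt5a of this list went the other way, at 35.0 ± 5.11 and 24.8 ± 3.96 CPM, and was called in neither fit. The part of telocyte numbers in the Frzb difference was not tested.

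Sfrp4 and Sfrp2, WNT-binding relatives of SFRP1, were scarce. Sfrp4 (chromosome 13, 19623104 to 19632994) was at 3.01, 7.14, 7.72 and 5.43 CPM in PDGFRα- and 7.42, 1.39, 2.91 and 2.15 CPM in PDGFRα+ libraries 1 to 4. PDGFRα+ library 1 stood within the PDGFRα- range while the other PDGFRα+ libraries were below all PDGFRα- libraries (log2 fold change -0.74 ± 0.61 SE, edgeR adjusted p = 0.938). Without PDGFRα+ library 1 the value was -1.43, and without PDGFRα+ library 2 it was -0.48. Sfrp2 (chromosome 3, 83766321 to 83774316) had 12, 1, 29 and 97 counts in PDGFRα- and 19, 0, 0 and 34 counts in PDGFRα+ libraries 1 to 4, and number 4 was the highest in both groups. Its log2 fold change of -1.35 had a 95% interval from -4.85 to 2.15 (edgeR adjusted p = 0.97), so no difference was detectable. The value ran from -0.29 without PDGFRα- library 4 to -3.33 without PDGFRα+ library 4. Exons of Sfrp2 share 347 bases with Gm26771 on the other strand, which had 181 counts in all, close to the total of Sfrp2, so its values are uncertain.

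Wif1 (chromosome 10, 121033960 to 121100650), which encodes a WNT-binding protein with a WIF domain, had 1, 2, 32 and 2 counts in PDGFRα- and 0, 0, 1 and 2 in PDGFRα+ libraries 1 to 4. PDGFRα- library 3 alone had more than 2 counts, at 2.5 CPM. An exact 2-sided permutation test of the CPM gave p = 0.286, where 0.0286 is the smallest p that 4 against 4 libraries can give.

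Among the Dickkopf genes, Dkk2 was called lower in the blocked edgeR fit, and Dkk3 was called in neither edgeR fit. Dkk2 (ENSMUSG00000028031, chromosome 3, 132085292 to 132180304, plus strand), whose upstream window is printed above, had the tightest values of all 10 genes. It stood at 197, 187, 163 and 163 CPM in PDGFRα- and 126, 103, 121 and 113 CPM in PDGFRα+ libraries 1 to 4. The groups were apart, and the coefficient of variation was 9.86% and 8.64%. The means of 178 ± 17.5 and 116 ± 9.99 CPM gave a 1.54-fold lower level in PDGFRα+ cells. The log2 fold change was -0.62 ± 0.14 (SE) without the block (edgeR adjusted p = 0.127, 95% interval -0.93 to -0.31) and -0.62 ± 0.12 with it (edgeR adjusted p = 0.0134). The blocked call did not hold without number 1 or 3 (edgeR adjusted p = 0.0697 and 0.074), with a log2 fold change between -0.68 and -0.53 in all 4 such fits.

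Dkk3 (ENSMUSG00000030772, chromosome 7, 112116017 to 112159057, minus strand) stood at 288, 286, 214 and 235 CPM in PDGFRα- and 267, 385, 290 and 254 CPM in PDGFRα+ libraries 1 to 4. The groups overlapped, with PDGFRα+ library 2 the highest. Its log2 fold change came to 0.23 ± 0.17 (SE), with a 95% interval of -0.15 to 0.60 and an edgeR adjusted p of 0.927. Dkk2 was 0.622, 0.593, 0.690 and 0.629 times the Dkk3 level per kb in PDGFRα- libraries 1 to 4, and 0.426, 0.243, 0.379 and 0.403 times in PDGFRα+ libraries 1 to 4. This ratio was chosen after the values were seen and has no test.

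Antagonist RNA as a whole did not separate the fractions. The 7 genes summed to 506 ± 122 CPM per kb in PDGFRα- and 523 ± 111 in PDGFRα+ libraries, of which Sfrp1 was 74.1% ± 3.87 and 75.1% ± 4.01. Without Sfrp1 the sums were 128 ± 14.9 and 127 ± 15.5 CPM per kb. Antagonist RNA stood at 16.1, 9.33, 7.42 and 5.51 times the R-spondin sum in PDGFRα- libraries 1 to 4 and at 16.3, 30.1, 16.0 and 7.93 times in PDGFRα+ libraries 1 to 4. The ratio was higher in PDGFRα+ in all 4 same-numbered pairs, by little in pair 1, with means of 9.59 ± 4.62 and 17.6 ± 9.21. The groups overlapped, with number 4 the lowest in both, and the ratio was not tested.

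The genes whose CPM followed each of the 4 most abundant members most closely were found among 6244 tested genes with a mean of at least 20 CPM, by Pearson's r of log2 CPM over the 8 libraries. For Sfrp1 these were Crnkl1 (r = 0.981), Ifngr2 (0.981) and Bsg (0.980), and for Dkk3 they were Cisd2 (0.950), Tmem204 (0.950) and Vdac1 (0.943). For Dkk2 they were Upf2 (0.972), AI464131 (0.962) and Lrrc75a (0.961), and for Rspo3 they were Smg1 (0.969), Flrt2 (0.966) and Auts2 (0.956). The best of many genes over 8 libraries reach a high r by selection, and the points share group, replicate number and library depth. In the blocked edgeR fit Flrt2, Lrrc75a and AI464131 were lower in PDGFRα+ cells, at an adjusted p of 0.0291, 0.0365 and 0.0474, and none of the 12 passed without it. The group difference was part of the likeness that picked these genes, so these p-values are not separate evidence.

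The partners of these secreted proteins were read from lists of WNT pathway genes. These lists were chosen with earlier results of these data known, so shares within them may partly reflect that choice. Of 5 genes for R-spondin receptors and their E3 ligases, 3 were tested and 0 called in either fit (0 at an unadjusted p under 0.05). The R-spondin receptor gene Lgr4 stood at 22.3 ± 8.31 CPM in PDGFRα- and 26.3 ± 6.66 CPM in PDGFRα+ libraries. The E3 ligase gene Znrf3 was higher in CPM, at 32.7 ± 12.2 and 32.5 ± 20.9. Per kb of merged exon the 2 genes were nearly equal, at 4.134 for Lgr4 and 4.128 for Znrf3. Per kb of the longest transcript Znrf3 led, at 5.16 against 4.81. Lgr5, the epithelial stem cell receptor gene, was too low to be tested, at 1.39 ± 1.48 and 0.385 ± 0.442 CPM. The E3 ligase gene Rnf43 was also too low. It had 45, 30, 25 and 4 counts in PDGFRα- and 0, 1, 3 and 0 counts in PDGFRα+ libraries 1 to 4. Its CPM did not overlap between the groups, with PDGFRα+ below, as in 2.36% of all tested genes, and this difference was not tested.

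Of 16 tested WNT receptor and co-receptor genes, the unpaired fit called 0. Before adjustment 5 were under 0.05 in that fit and 7 with the block (6.95% and 11.65% of all tested genes). With the block 1 was called higher and 2 lower, against 1.34% and 0.933% of all tested genes. Lrp6, which encodes the co-receptor that DKK2 binds, stood at 608, 693, 572 and 637 CPM in PDGFRα- and 422, 428, 451 and 430 CPM in PDGFRα+ libraries 1 to 4. The groups did not overlap, and the blocked fit gave a log2 fold change of -0.53 ± 0.11 (SE) at an edgeR adjusted p of 0.0165, against 0.199 unpaired. Fzd7, a frizzled receptor gene, was at 96.3 ± 12.9 and 54.7 ± 21.6 CPM (blocked edgeR adjusted p = 0.0158, unpaired 0.394). Ptk7, the gene of a WNT co-receptor of the pseudokinase class, went the other way, at 97.9 ± 11.5 and 156 ± 8.62 CPM (blocked edgeR adjusted p = 0.00633, unpaired 0.0819). Fzd1, the most abundant per kb, did not differ detectably (289 ± 25.5 and 257 ± 27.4 CPM, edgeR adjusted p = 0.946). The median blocked log2 fold change of the list was -0.08, against -0.01 over all tested genes.

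Of 8 tested WNT ligand genes, Wnt4 was higher in both fits, and Wnt9a was lower with the block. Over all tested genes 0.192% were higher unpaired, and 1.34% were higher and 0.933% lower with the block. Log2 fold changes were negative for 6 of 8 in both fits, against 50.9% and 50.5% of all tested genes. Their median was -0.49 unpaired and -0.38 blocked, against -0.01 over all tested genes. Before adjustment 4 and 5 of 8 were under 0.05, against 6.95% and 11.65% of all tested genes. Over all 19 ligand genes the summed level was 379 to 414 CPM in PDGFRα- and 319 to 355 CPM in PDGFRα+ libraries, without overlap. Most of this sum was Wnt2b, whose own groups overlapped, at 232 to 285 CPM in PDGFRα- and 204 to 265 CPM in PDGFRα+ libraries. The sum was not tested. Wnt4 was at 5.27 ± 1.08 and 22.7 ± 8.81 CPM (edgeR adjusted p = 0.0265 without and 0.00249 with the block), and Wnt9a at 46.6 ± 17.4 and 24.7 ± 2.60 CPM (blocked edgeR adjusted p = 0.0356). Wnt2b, a ligand gene of crypt stroma and the most abundant per kb, stood at 261 ± 23.9 and 231 ± 25.3 CPM, and Wnt5a, which encodes a ligand mainly of β-catenin-independent signalling, at 35.0 ± 5.11 and 24.8 ± 3.96 CPM, neither called in either fit. The 19 genes for WNT secretion and intracellular transduction had 0 calls in both fits (0 and 1 at an unadjusted p under 0.05), with Ctnnb1, the β-catenin gene, at 298 ± 37.2 and 279 ± 35.5 CPM.

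Of 9 tested WNT target and feedback genes, 0 were called in either fit (1 and 2 at an unadjusted p under 0.05, against 6.95% and 11.65% of all tested genes). Axin2, a feedback inhibitor and common readout of β-catenin signalling, stood at 49.1 ± 10.3 and 37.4 ± 12.2 CPM, lower in PDGFRα+ in all 4 same-numbered pairs, with a blocked log2 fold change of -0.42 ± 0.18 (SE, edgeR adjusted p = 0.34). Ccnd1, the cyclin D1 gene, went the other way, at 6.07, 6.18, 8.58 and 6.98 CPM in PDGFRα- and 16.4, 28.5, 14.9 and 9.36 CPM in PDGFRα+ libraries 1 to 4. Its groups did not overlap, but it passed neither fit (edgeR adjusted p = 0.246 unpaired and 0.108 blocked). It was the only target gene under 0.05 before adjustment in the unpaired fit and is named for that after its values were seen. Its exons share 1100 bases with LTO1 on the other strand, which had 1888 counts against 2374 for Ccnd1, so its values are uncertain. Myc was the most abundant of the list per kb, at 43.5 ± 8.15 and 37.9 ± 10.1 CPM. Among 14 further R-spondin and secreted antagonist genes only 4 were high enough to be tested and 0 were called in either fit (1 and 2 at an unadjusted p under 0.05). Igfbp4, whose product binds IGF and also antagonises WNT receptors, was the most abundant, at 766 ± 590 and 904 ± 563 CPM. Rspo4 and Dkk4 were listed at 0 in every library, and Dkk1 had 42 counts in all. Exons of Wnt5a, Axin2, Ctnnb1, Bmp5, Cd81, Abcc9 and Col15a1 also share bases with genes on the other strand, and whether the counting used strand is not stated. The shared length was 104 bases for Cd81, 158 for Abcc9 and 14 for Col15a1.

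**Figure D4:**
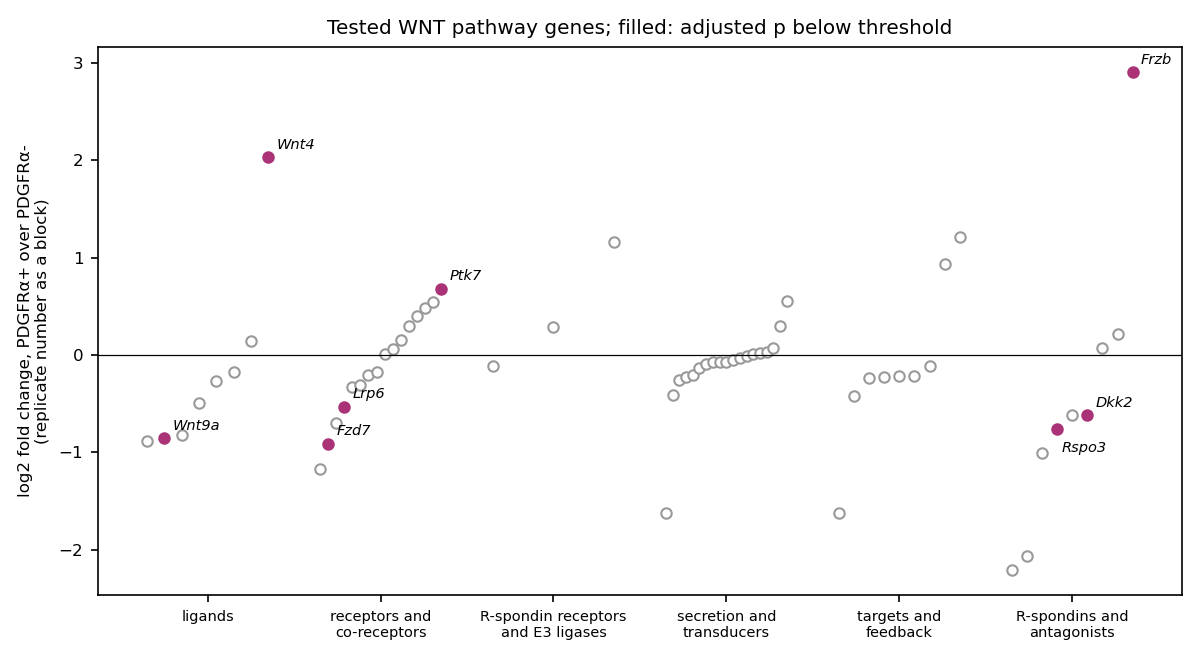
Log2 fold change of PDGFRα+ over PDGFRα- libraries with the replicate number as a block (y axis) for the tested genes of each WNT pathway list, ordered by value within a list; filled and named points passed the adjusted p threshold. Wnt4, Ptk7 and Frzb are the filled points above 0, and Wnt9a, Fzd7, Lrp6, Rspo3 and Dkk2 those below.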

How the data were processed

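RNA of 8 libraries of sorted cells was made into libraries with a stranded total RNA kit for small inputs, per the labels' protocols. Per the submitters' processing notes, cutadapt 3.4, STAR 2.7.3a, featureCounts 2.0.1 and DESeq2 were used with the build GRCm38 (mm10). How strand was set and which annotation release was counted is not given in the sources used here. Raw counts per gene were deposited. The deposited comparison table adds size-factor-scaled counts rounded to whole numbers (a score, not tested here). It also holds the authors' p-value, unadjusted and adjusted, their fold change as a ratio and its log2. A dispersion per gene is a further deposited score. Refitting DESeq2 over 29254 genes matched it to within 8.73e-04% when number and group were both terms, and left differences of up to 7498% with group alone.

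Counts were tested with edgeR 4.0.16 in R 4.3.3 (TMM, filterByExpr, robust quasi-likelihood test, Benjamini-Hochberg over 15643 genes, threshold 0.05). The main design had group as the only term. The fit with the replicate number as a block is given beside it because the deposited comparison holds that number. Alternatives were RLE size factors, other filters, DESeq2 1.42.0, limma-voom (limma 3.58.1), and leaving out libraries or numbers. Exon lengths and positions are from GENCODE M21, which holds 53706 of 53801 identifiers, and upstream windows are from RefSeq (GRCm38.p6). The symbols Itgam and Ccl21a are on more than 1 row each, and the row with more counts was used. All members are named. Of the other pathway lists, and of the marker lists, called genes and the most abundant gene per kb are named, with Axin2, Lgr4, Lgr5, Wnt2b and Wnt5a. For the 4 members with the highest mean CPM, the 3 genes with the most alike log2 CPM are named. The members and lists were chosen with earlier results of these data known. No molecular identifiers are stated, so limits at 0 counts (3 counts) cover counting error only.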

Additional observations from a re-analysis of the deposited data

Results flagged for a closer look

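Frzb in PDGFRα- library 1, at 9.53 CPM, lay far from the other PDGFRα- libraries, which ran from 0.654 to 1.76 CPM. Wif1 in PDGFRα- library 3, at 2.5 CPM, lay far from the other PDGFRα- libraries, at 0.0407 to 0.101 CPM. Chance flags about 1 in 20 groups of this size, and 20 groups were looked at.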

How the results depend on the processing

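The count of genes called over the whole table was 38 and depended on the settings. It was 355 with the replicate number as a block (replicate block), 277 without a low-count filter and 272 by DESeq2, 7 to 49 over the unpaired fits that leave out 1 library, and 196, 281, 99 and 300 with the block and without number 1, 2, 3 or 4. Of the 10 genes, 0 were called higher and 0 lower in the unpaired fit. The counts were 1 and 2 with the replicate block, 1 and 1 without a low-count filter (Frzb and Rspo3), and 1 and 1 by DESeq2 (Frzb and Dkk2). Over the fits with a library or number left out they were 0 to 1 higher and 0 to 1 lower. RLE size factors, a stricter filter and limma-voom left both at 0. Sfrp1 changed sign in 4 fits, at -0.0733 without PDGFRα- library 4, -0.0184 without PDGFRα+ library 1, -0.00889 without PDGFRα+ library 2 and -0.0222 with the block and without number 3 (up to 0.25 over all libraries left out), and no other tested member changed sign in any fit run. The cause of these differences was not tested. Same-numbered libraries correlated in their deviations from the group means at 0.23, 0.18, 0.02 and 0.25 for numbers 1 to 4, with 7 of 8 libraries closest to their own number. Among genes that average 20 CPM or more, the correlations were 0.58, 0.32, 0.28 and 0.61. The value for number 3 is thus below 0.1 over all tested genes and above it over the abundant ones. How closely same-numbered libraries matched therefore depended on the genes used, and what they share is not stated. Counts were low for Sfrp2 (0 to 97 per library) and Wif1 (0 to 32), and the unpaired intervals of Rspo1, Sfrp2 and Sfrp4 hold both increases and large decreases. Low counts and spread between libraries were not separated.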
